A study of Homo sapiens with 8 samples.

Results

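The 10 genes described here encode Notch receptors (NOTCH1, NOTCH2, NOTCH3), their ligands (JAG1, JAG2, DLL1), direct target genes (HES1, HEY1) and the endocytic inhibitors NUMB and NUMBL. They were chosen by gene name from a table of read counts that lists 58735 genes, and all 10 were found. The data are RNA-seq counts from 8 libraries, in 2 groups of 4, of a culture that the labels call A549, which is a cell line from a human lung adenocarcinoma. The EV group carried an empty lentiviral vector and the KRT19 group a lentivirus expressing Flag-tagged KRT19. According to the study's methods, both were stable lines kept after puromycin selection, and the labels give RPMI-1640 with fetal bovine serum as the medium for all libraries. The protein made from KRT19 is keratin 19, part of the filament network of simple epithelia, and the comparison asks how its overexpression changed the transcriptome. The labels number the libraries of a group as replicates but do not say that they came from separate cultures, so p-values measure the spread between these libraries, which may be technical.

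Notch signalling passes between neighbouring cells. A Jagged or Delta-like ligand on one cell binds a Notch receptor on the next, ADAM10 and then the γ-secretase complex cut the receptor, and the freed intracellular domain enters the nucleus. There it joins the DNA-binding protein RBPJ and a Mastermind coactivator and switches on genes such as HES1 and HEY1, which encode basic helix-loop-helix repressors. NUMB and its relative NUMBL are adaptor proteins that promote endocytosis and degradation of Notch. In the lung epithelium the pathway is best known for directing airway progenitors towards secretory rather than ciliated fates.

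The promoter of HES1 is a known site of RBPJ binding. RefSeq windows of 250 bases before the gene start (build GRCh38.p14) were matched by symbol for 8 of the 10 genes, the exceptions being DLL1 and HEY1. They were searched on both strands for the core of the RBPJ motif, TGGGAA, and for the N box CACNAG that HES proteins bind. The HES1 window is printed first because it is the only matched window that held the RBPJ core. The JAG2 window is printed for comparison, because JAG2 had the smallest p-value of the 10 genes and its window held neither motif. RefSeq gene starts need not equal those of the gene spans given below. Both NUMBL windows lie wholly inside the NUMBL span, and those of HES1, NUMB and JAG2 reach into the spans of their genes. Capitals mark the matches, and a match on the opposite strand appears as its reverse complement.
HES1, chr3:194135898-194136147, plus strand: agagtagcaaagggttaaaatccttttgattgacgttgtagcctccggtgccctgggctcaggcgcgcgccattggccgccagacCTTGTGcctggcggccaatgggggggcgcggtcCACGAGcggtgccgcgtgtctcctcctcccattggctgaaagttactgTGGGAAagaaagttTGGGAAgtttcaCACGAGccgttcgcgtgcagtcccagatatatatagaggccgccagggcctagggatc
JAG2, chr14:105168777-105169026, minus strand: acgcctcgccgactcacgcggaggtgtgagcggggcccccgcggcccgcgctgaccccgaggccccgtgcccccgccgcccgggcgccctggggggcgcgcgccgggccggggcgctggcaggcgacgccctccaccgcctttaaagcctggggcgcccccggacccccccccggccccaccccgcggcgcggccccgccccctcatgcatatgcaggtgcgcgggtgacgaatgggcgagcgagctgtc

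The HES1 window held 2 copies of TGGGAA, the first beginning 84 and the second 70 bases before the RefSeq gene start. It also held 3 N boxes, which begin 165, 132 and 58 bases before the start, the farthest of them on the opposite strand. Of 35116 RefSeq windows of the same length, 20.9% held TGGGAA at least once and 2.90% held 2 or more copies, while 32.04% held the N box. The NOTCH3 window held 1 N box, 211 bases before the start, and the other matched windows held neither motif. These matches describe letters in a window and say nothing of binding in these cells.

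The libraries held 14073065 to 17054364 counted reads, and a floor of 3 counts corresponded to between 0.176 and 0.213 counts per 1000000 counted reads (CPM, scaled by TMM). KRT19 itself had 1 to 5 counts in the EV libraries and 4353 to 5147 in the KRT19 libraries, as the labels state. The label of the cell line was not matched by its markers: of 8 listed genes, 4 had enough reads to be tested and 3 had at most 3 counts everywhere. KRT8, KRT18 and NQO1 were high (at least 189.3 CPM), but EPCAM, CDH1 and ALDH1A1 had at most 3 counts in any library. AKR1C1 had 10 to 22 counts and AKR1B10 had 1 to 14. CDKN2A, CDKN2B and MTAP, which A549 cells are known to have lost by homozygous deletion, had 1328 to 1824, 466 to 659 and 653 to 870 counts. The cells are therefore called the cells labelled A549 throughout. The extraction text of the labels names retina, yet RCVRN and SAG, which mark photoreceptors, had 0 counts in all 8 libraries. NRL, a rod photoreceptor factor, had 9 to 24 counts, and CRX, PDE6B and RPE65 had at most 6. The other marker lists summed to at most 3.56 CPM for fibroblast, 2.33 CPM for endothelial and 0.304 CPM for immune genes. In bulk RNA, fewer cells expressing a gene and less RNA per cell cannot be told apart.

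All 10 Notch genes were expressed in every library, and 0 of them differed between the groups at an adjusted p under 0.05 in edgeR, DESeq2 or limma-voom with library weights. Across all 14621 genes tested, 0.00684% passed that threshold in edgeR, which was KRT19 alone. The log2 fold change of KRT19 against EV was below 0 for 8 of the 10 genes, namely the 3 receptors, the 3 ligands, NUMB and NUMBL, and above 0 for HES1 and HEY1. The median was -0.067 over the 10 genes and 0.0051 over all tested genes, of which 47.8% lay below 0. At an unadjusted p under 0.05, the threshold stated in the study's methods, 1 of the 10 genes was lower (JAG2) and 0 were higher, against 2.56% of all tested genes lower and 2.85% higher. DLL1 was the 1 gene of the 10 whose lowest EV library lay above its highest KRT19 library, and 0 of the 10 were separated in the other direction. Over all tested genes these shares were 1.81% and 1.63%.

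Levels were compared between genes as transcripts per 1000000 (TPM), in which counts are divided by the summed exon length of each gene. The submitters name Bowtie without its role, and this program alone does not align reads across exon junctions. If it was used alone, genes with many short exons, such as the receptors, would have lost more reads than genes with few. The order of levels and the shares given here are uncertain to that extent, which was not tested. Over the 8 libraries the order was NUMBL at 73.2 ± 2.86, NUMB at 46.7 ± 1.81, NOTCH2 at 34.7 ± 2.35, JAG2 at 17.07 ± 1.499 and NOTCH1 at 13.1 ± 0.999 TPM (mean ± SD, n = 8). The ranges of these 5 genes did not overlap their neighbours in the order. HEY1 at 5.92 ± 0.337, NOTCH3 at 4.94 ± 0.707, JAG1 at 4.87 ± 0.477 and HES1 at 4.80 ± 0.782 TPM followed, and each overlapped the next in its range. DLL1 came last at 1.95 ± 0.314 TPM and did not overlap HES1. The transcripts of the inhibitors were thus the most abundant of the set, and the rarest were those of a ligand.

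**Figure D1:**
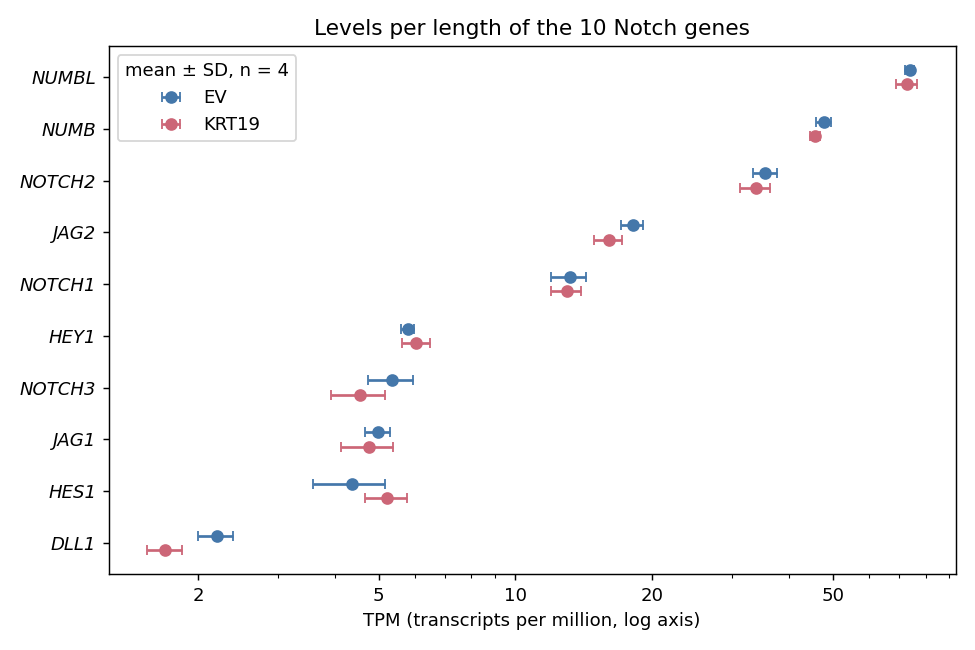
TPM of the 10 Notch genes on a log axis, with points for the mean and whiskers for the SD of the 4 EV and the 4 KRT19 libraries. NUMBL (73.2 TPM over all 8 libraries) was highest and DLL1 (1.95 TPM) lowest, and the order of the 5 most abundant genes was the same in both groups.

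NOTCH2 was the main receptor transcript. It accounted for 65.8% ± 1.14 (SD, n = 8) of the summed TPM of the 3 receptors, NOTCH1 for 24.8% ± 1.00 and NOTCH3 for 9.34% ± 0.809. With the longest transcript in place of the summed exons, the share of NOTCH2 was 72.0%. Among the 3 ligands, JAG2 accounted for 71.4% ± 1.59 of the summed TPM, JAG1 for 20.4% ± 1.87 and DLL1 for 8.13% ± 0.979. The share of JAG1 depended on the length used and was 27.0% with the longest transcript. NUMB made up 38.95% ± 0.859 of NUMB and NUMBL together, or 41.9% with the longest transcripts.

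NOTCH1 (chr9:136494433-136545786, hg38) encodes the founding human member of the receptor family. Its levels were 38.5, 33.0, 40.0 and 40.5 CPM in EV replicates 1 to 4 and 38.1, 38.8, 33.0 and 40.2 CPM in KRT19 replicates 1 to 4. Each group held 1 library near 33 CPM and 3 near 40, and the groups overlapped throughout. The log2 fold change was -0.021 ± 0.077 (SE, edgeR quasi-likelihood test, adjusted p = 0.978), with a 95% interval from -0.18 to 0.14, and its sign reversed under 6 of 17 alternative settings.

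NOTCH2 (chr1:119911553-120069626) had 168.9, 153.2, 178.2 and 164.3 CPM in the EV libraries and 150.2, 169.3, 146.4 and 167.2 CPM in the KRT19 libraries. The groups overlapped, and the difference of -0.070 ± 0.060 on the log2 scale was not past the test (edgeR adjusted p = 0.923), and it ranged from -0.11 without EV replicate 2 to -0.035 without KRT19 replicate 3 and was -0.015 in limma-voom with library weights. Of the 75-base words in its transcripts, 20.04% also occur in other genes, mainly NBPF19 (18.3%) and NOTCH2NLA (17.2%). How the counting treated reads that match several genes is not given in the sources used here, so the level of NOTCH2 is uncertain to that extent. NOTCH2NLA itself was close to the floor, with 0.304 to 0.820 CPM.

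NOTCH3 (chr19:15159038-15200981), a receptor best known from vascular smooth muscle, had 14.2, 11.9, 15.9 and 13.7 CPM in EV replicates 1 to 4. In the KRT19 libraries it had 12.5, 13.4, 9.60 and 12.04 CPM. KRT19 replicate 3 was the lowest of all 8 libraries, but EV replicate 2 lay below 3 of the 4 KRT19 libraries, so the groups overlapped. The means were 13.96 ± 1.65 and 11.9 ± 1.61 CPM (SD, n = 4 each), a log2 difference of -0.24 ± 0.11 that did not pass the test (edgeR p = 0.0508, adjusted p = 0.906; exact permutation p = 0.143). Without KRT19 replicate 3 the difference was -0.14.

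JAG1 (chr20:10637684-10673999) encodes a Jagged ligand required for bile duct and heart development. It had 11.9, 13.8, 12.5 and 13.4 CPM in the EV libraries and 10.9, 14.2, 11.3 and 12.8 CPM in the KRT19 libraries. Both the lowest and the highest of the 8 values came from KRT19 libraries. JAG1 differed by -0.076 ± 0.10 on the log2 scale (edgeR adjusted p = 0.952), which was -0.021 without KRT19 replicate 1 and -0.15 without KRT19 replicate 2.

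JAG2 (chr14:105140981-105168824) encodes the second Jagged ligand, the most abundant of the 3 ligand transcripts in TPM. EV replicates 1 to 4 had 33.3, 30.2, 34.1 and 31.5 CPM, and KRT19 replicates 1 to 4 had 29.6, 30.5, 26.0 and 28.0 CPM. The groups overlapped by a single pair, since KRT19 replicate 2 exceeded EV replicate 2 by a small margin. The means were 32.3 ± 1.75 and 28.5 ± 1.99 CPM (SD, n = 4 each), a difference of -11.6% with a 95% interval from -20.1% to -2.18%. On the log2 scale this was -0.18 ± 0.069, which ranked 307 by p-value among all tested genes (edgeR p = 0.0199, adjusted p = 0.906; exact permutation p = 0.0571). The log2 difference lay below the middle 95% of genes of like level, whose lower bound was -0.15. The unadjusted p rose to 0.0577 without KRT19 replicate 3, to 0.0595 without EV replicate 3 and to 0.0528 with replicate number as a block. Of the 75-base words of JAG2, 6.12% are shared with AL512356.1, a processed transcript on the same strand that had at most 1 count in any library.

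DLL1 (chr6:170282206-170306565) encodes a Delta-like ligand with a central part in embryonic segmentation. It had 2.13, 1.93, 2.07 and 1.77 CPM in the EV libraries and 1.51, 1.42, 1.70 and 1.46 CPM in the KRT19 libraries. Every KRT19 library lay below every EV library, and 4 against 4 libraries cannot give a smaller exact permutation p than the 0.0286 found. After GC and length correction the groups overlapped, with an exact permutation p of 0.0571. The EV libraries averaged 1.97 ± 0.162 CPM and the KRT19 libraries 1.52 ± 0.123 CPM (SD, n = 4 each). On the log2 scale the difference of -0.37 ± 0.20 did not pass the test (edgeR p = 0.0806, adjusted p = 0.906; exact permutation p = 0.0286), with a 95% interval from -0.78 to 0.050. These levels rested on 30 to 34 reads per EV library and 20 to 29 per KRT19 library. Counting error alone corresponds to a coefficient of variation of 17.7% in EV and 20.4% in KRT19, while the observed values were 8.22% and 8.10%, so the spread between these libraries was smaller than counting error alone gives on average.

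The span of DLL1 overlaps that of FAM120B, a protein-coding gene on the opposite strand, by 15863 bases, but their annotated exons share 0 bases. FAM120B had 27.2 to 30.2 CPM in the EV libraries and 22.1 to 24.9 CPM in the KRT19 libraries, again with no overlap between the groups. Its log2 fold change was -0.30 ± 0.068 (edgeR p = 0.000396, adjusted p = 0.431; exact permutation p = 0.0286), and it stayed between -0.33 and -0.27 under 17 alternative settings. The strand setting of the counting is not given in the sources used here. The part of FAM120B reads in the DLL1 difference was not tested.

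**Figure D2:**
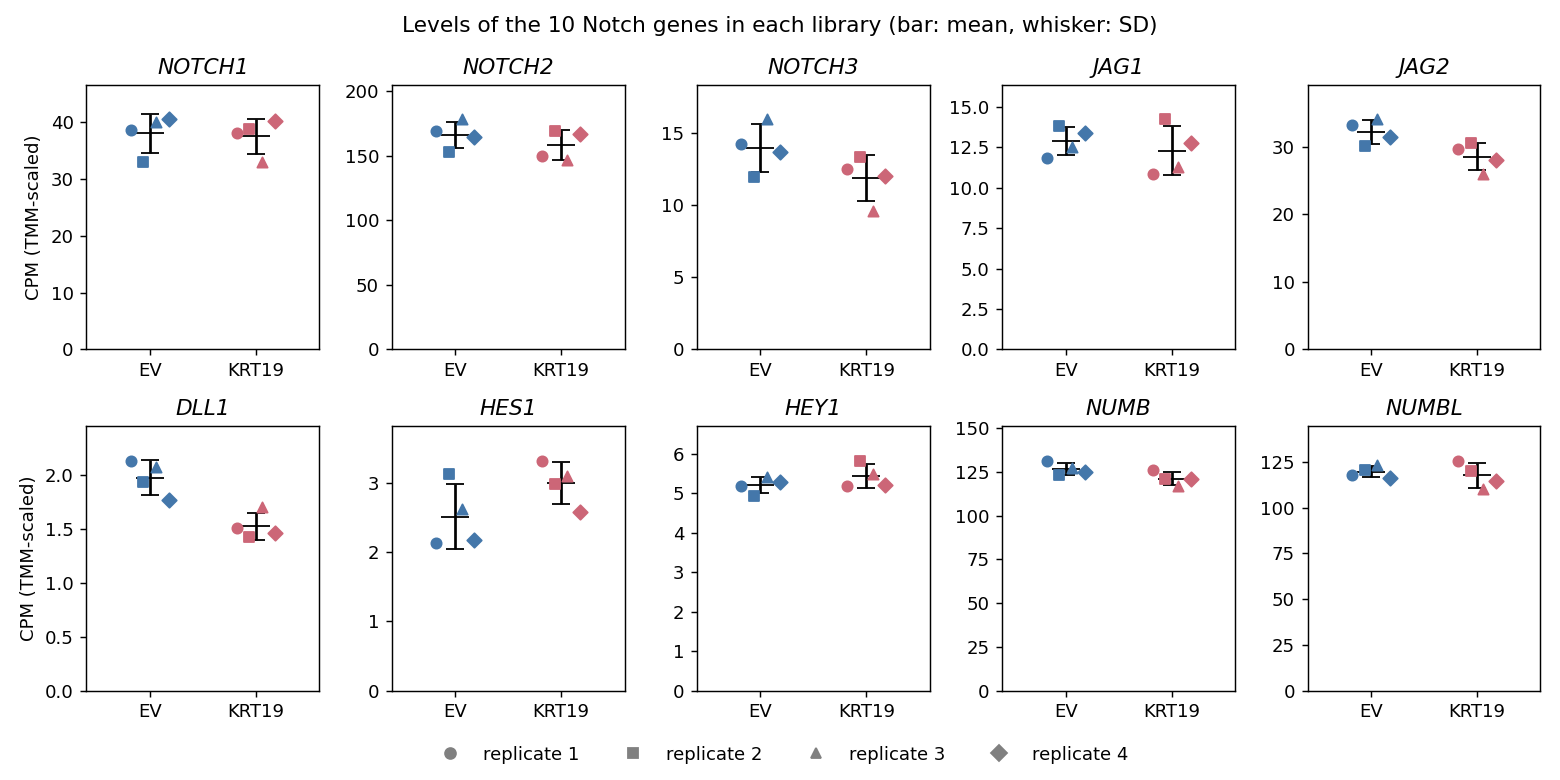
CPM of each Notch gene in every library, with 1 marker shape per replicate number, a bar for the mean and whiskers for the SD of each group; each panel has its own linear axis from 0. DLL1 is the gene whose groups are separated (lowest EV library 1.77 CPM, highest KRT19 library 1.70 CPM), and KRT19 replicate 3 is the lowest library for 5 of the 10 genes.

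HES1 (chr3:194136145-194138732), the repressor whose promoter is printed above, had 2.13, 3.13, 2.62 and 2.18 CPM in EV replicates 1 to 4. In KRT19 replicates 1 to 4 it had 3.32, 2.99, 3.10 and 2.58 CPM. The highest value and 3 of the 4 highest were in KRT19 libraries, but EV replicate 2 lay above 3 of the 4 KRT19 libraries. HES1 averaged 2.51 ± 0.467 CPM without and 2.998 ± 0.311 CPM with KRT19 overexpression (SD, n = 4 each), with 32 to 52 and 39 to 55 reads per library. The difference of 0.25 ± 0.18 on the log2 scale did not pass the test (edgeR adjusted p = 0.911; exact permutation p = 0.200). Its 95% interval, from -0.12 to 0.63, left room for a small decrease as well as for an increase of 54.6%.

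HEY1 encodes a related repressor with its gene on chromosome 8. It varied little, between 4.94 and 5.42 CPM in the EV libraries and between 5.19 and 5.83 CPM in the KRT19 libraries. The log2 fold change was 0.060 ± 0.12 (edgeR adjusted p = 0.965), 0.027 without KRT19 replicate 2 and 0.082 without KRT19 replicate 1. HEY1 and HES1 differed from the other 8 genes in the sign of their fold change, but neither passed the test.

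NUMB (chr14:73275107-73458617) had 131.5, 123.2, 127.3 and 125.0 CPM in the EV libraries and 125.9, 121.0, 117.0 and 121.2 CPM in the KRT19 libraries. KRT19 replicate 1 lay within the EV range and the other 3 lay below it. NUMB averaged 126.8 ± 3.58 CPM without and 121.3 ± 3.65 CPM with KRT19 overexpression (SD, n = 4 each). This was a log2 fold change of -0.064 ± 0.049 with a 95% interval from -0.17 to 0.040 (edgeR adjusted p = 0.916; exact permutation p = 0.0857). NUMBL (chr19:40665905-40690972) ranged from 116.3 to 123.3 CPM in EV and from 110.4 to 125.7 CPM in KRT19, and the KRT19 libraries enclosed the EV range on both sides. Its log2 fold change was -0.023 ± 0.053 (edgeR adjusted p = 0.969). For these abundant transcripts the intervals were narrow, and that of NUMB extended to -11.0% and that of NUMBL to -8.93%.

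**Figure D3:**
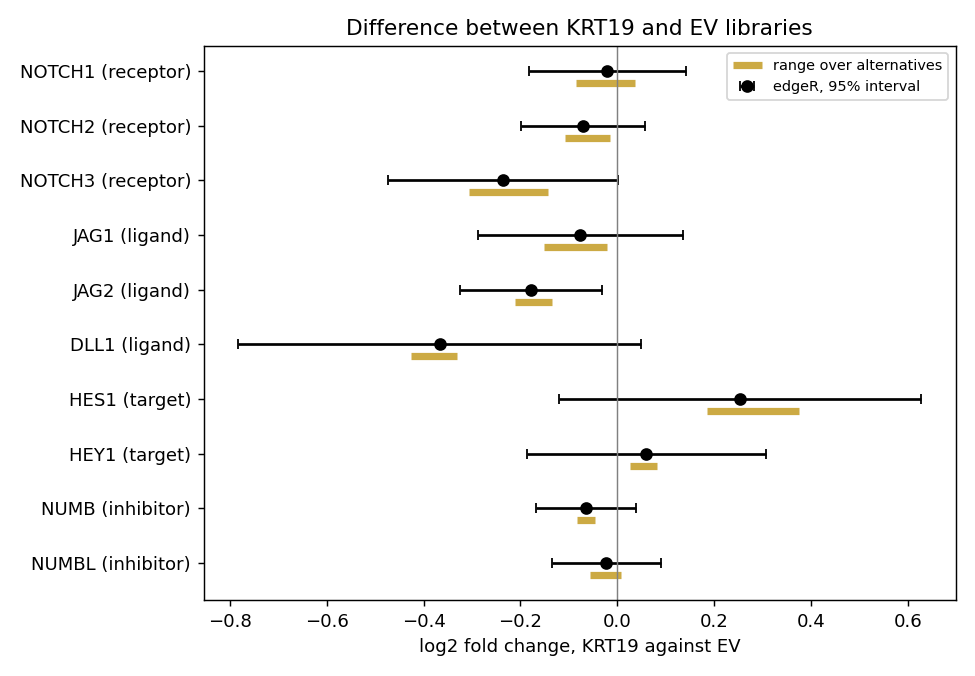
Log2 fold change of KRT19 against EV for each Notch gene (points) with its 95% interval from edgeR (whiskers) and, below it, the range over the alternative settings (bars). The interval of JAG2 (-0.32 to -0.032) is the one that leaves out 0, and those of DLL1 and HES1, the genes with the fewest reads, are the widest.

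KRT19 replicate 3 held the lowest CPM of all 8 libraries for NOTCH2, NOTCH3, JAG2, NUMB and NUMBL. How often KRT19 replicate 3 was lowest among all tested genes is not given here, so this may not be particular to the Notch genes. Leaving that library out moved the median log2 fold change of the 10 genes from -0.067 to -0.036. Limma-voom with library weights gave -0.033 over all libraries. Without KRT19 replicate 3, the log2 fold changes of NOTCH1 and NUMBL were 0.037 and 0.0076. The highest values of NOTCH2, NOTCH3 and JAG2 were all in EV replicate 3, without which the median was -0.048. The part of these libraries in the shared sign was not tested.

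The other genes of the pathway were spread over both directions. Of 66 listed genes 58 had enough reads to be tested, 31 of them with a log2 fold change below 0 and 27 above, with a median of -0.0078. At an adjusted p under 0.05, 0 of the 58 passed in edgeR, DESeq2 or limma-voom with library weights, and at an unadjusted p under 0.05, 1 was lower and 1 was higher, or no larger a share than the 2.56% and 2.85% of all tested genes. The lower gene was BHLHE40, a basic helix-loop-helix repressor and the most abundant gene listed under other targets. Whether the genes of that list respond to Notch in these cells was not tested. BHLHE40 had 124.5, 125.1, 133.5 and 128.8 CPM in the EV libraries and 122.4, 118.2, 101.1 and 113.5 CPM in the KRT19 libraries, with no overlap. Its log2 fold change was -0.17 ± 0.060 (edgeR p = 0.0109, adjusted p = 0.906; exact permutation p = 0.0286). The higher gene was CIR1, which encodes a corepressor that binds RBPJ. It averaged 12.2 ± 1.55 CPM in EV libraries and 15.4 ± 4.92 CPM in those with KRT19 (SD, n = 4 each), with 22.7 CPM in KRT19 replicate 3 and 11.7 to 14.1 CPM in the other 3. Its log2 fold change of 0.35 ± 0.16 (edgeR p = 0.0475, adjusted p = 0.906; exact permutation p = 0.229) was 0.097 without that library.

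By role, the receptors and ligands outside the set of 10 had 4 of 6 tested genes below 0, and MFAP2, a matrix protein that binds Notch ligands, was the most abundant at 36.5 TPM. The enzymes that glycosylate the receptors had 2 of 5 below 0, led by the O-fucosyltransferase POFUT1 at 93.7 TPM. The proteases that cut the receptors had 8 of 9 below 0, but their median was -0.028 and the largest decrease -0.10, and APH1A, a γ-secretase subunit at 152.6 TPM, was at 0.0082 ± 0.054. The ubiquitin ligases had 5 of 10 below 0, led by ITCH at 78.3 TPM. The nuclear complex had 3 of 9 below 0, led by SNW1 at 200.9 TPM, and RBPJ itself averaged 147.1 ± 15.8 CPM in the EV libraries against 149.8 ± 10.2 CPM in the others. The corepressors had 4 of 11 below 0, led by the deacetylase HDAC1 at 237.5 TPM. The genes listed as other targets had 5 of 8 below 0, with a median of -0.083. The genes with too few reads to test included DLK1, TLE4 and HES5, which were listed at 0 counts in all 8 libraries.

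**Figure D4:**
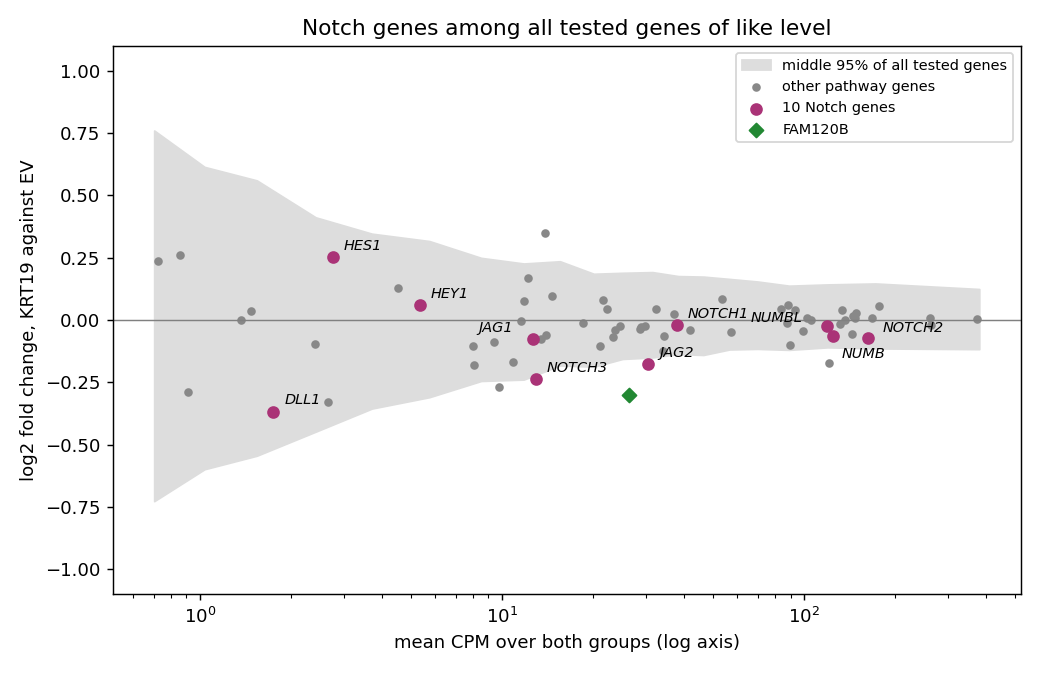
Log2 fold change of KRT19 against EV plotted against mean CPM (log axis) for the 10 Notch genes, the other tested pathway genes and FAM120B over a grey band that spans the middle 95% of all tested genes in 20 bins of level. JAG2, FAM120B, BHLHE40 and HES4 lie below the band and CIR1 above it, NOTCH3 lies at its lower edge, and DLL1 (-0.37) and HES1 (0.25) lie inside it, where the band is wide.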

How the data were processed

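Per the labels, RNA was isolated with TRIzol and the NEBNext Ultra kit served to make the libraries. The submitters' processing notes name hg38, Bowtie 0.12.2, featureCounts 1.5.0-p3 and DESeq2, without their roles or order; the settings for strand and for reads matching several genes are not given in the sources used here. The authors deposited raw read counts per gene, with no normalization and 1 column per library. Groups were taken from the sample titles.

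Genes were filtered with filterByExpr, which kept at least 99.8% of the counts, scaled by TMM and tested with edgeR 4.0.16 (quasi-likelihood, two-sided, Benjamini-Hochberg over 14621 genes, threshold 0.05; biological coefficient of variation 6.86%) in R 4.3.3. The script was tested on simulated counts. Exact permutation tests, two-sided, used mean log2 CPM with a prior count of 2. Floors and counting errors cover counting error only. Alternatives were other scalings and filters, DESeq2 1.42.0, limma 3.58.1 (voom with sample quality weights, so that test and weighting changed together), GC and length correction, a replicate block and leaving out each library. The named genes were the 10 Notch genes, KRT19, pathway genes at an unadjusted p under 0.05 and the most abundant gene of each list. Also named were the 3 genes closest to HES1 and to NUMB by correlation, and genes overlapping or sharing sequence with a Notch gene. DLL3, HES4, RBPJ, DLK1, TLE4 and HES5 were named after their values were seen. The genes and lists were chosen with earlier results of these data known.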

Additional observations from a re-analysis of the deposited data

How the results depend on the processing

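Over 168 pairs of a Notch gene and an alternative setting, 0 passed the adjusted threshold (lowest adjusted p 0.470) and 161 kept their direction. NOTCH1 turned to 0.025 with limma-voom and its library weights, 0.0022 with GC and length correction and 0.0027 with that correction and the replicate block, and ranged from -0.085 to 0.037 when 1 library was left out; NUMBL then ranged from -0.056 to 0.0076. JAG2 kept an unadjusted p under 0.05 under 14 of 17 settings and NOTCH3 had one under 6; DLL1 and HES1 drop out under the stricter filter.

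The count of Notch genes lower at an unadjusted p under 0.05 was 2 with upper-quartile scaling, the looser filter or GC and length correction, 0 with the replicate block, and 0 to 2 without 1 library (0 without EV replicate 3 or KRT19 replicate 3). Separated groups were 0 with GC and length correction and 1 to 3 without 1 library (3 without EV replicate 2). Groups of 3 against 4 separate more easily, with a smallest exact permutation p of 0.0571 against 0.0286. The share over all tested genes was not computed for these settings, so these counts cannot be set against the 1.81% given above. Of the other pathway genes, 2 were lower with upper-quartile scaling, weighted limma-voom or the looser filter, and 1 to 3 without 1 library; 0 were higher with upper-quartile scaling, DESeq2, the stricter filter or either block fit, 2 with GC and length correction, and 0 to 1 without 1 library. Their median was 0.00060 with weighted limma-voom and -0.021 to 0.0031 without 1 library. Shares with the longest transcript were 27.0% (JAG1), 72.0% (NOTCH2) and 41.9% (NUMB).

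Over all genes, 1 passed the adjusted threshold in the analysis reported, 5 with DESeq2 or GC and length correction, 8 with weighted limma-voom or with that correction and the block, 71 with the looser filter and 1 to 5 without 1 library. At an unadjusted p under 0.05 there were 791, against 1559 with the looser filter, 1337 with weighted limma-voom, 451 with the replicate block, 1196 with GC and length correction and 620 to 1228 without 1 library. Libraries of equal replicate number had correlations of deviations from -0.16 to 0.057. Unlike numbers were not compared, so whether the libraries were paired was not settled. The causes were not tested. Depth limits DLL1 and HES1 most.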

Other observations

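The genes whose log2 CPM followed HES1 most closely over the 8 libraries were BLMH (Pearson r = 0.96), RMDN3 (0.948) and FAM136A (0.938), among 9511 genes with a mean of at least 10 CPM. For NUMB they were BET1L (0.954), TIMP2 (0.953) and HTRA1 (0.947), among 9510 genes. These values are given as a description with no test, since the 8 libraries share their depth, preparation and 2 groups. They are also the highest of 9511 or 9510 correlations over only 8 libraries, and such a selection alone can give high values.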
